A study of Kluyveromyces marxianus and Kluyveromyces lactis with 30 samples.

Results

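A group of 144 genes of the yeast Kluyveromyces lactis was lower in heat, in methyl methanesulfonate (MMS) and in caffeine than in unstressed cultures. The members were chosen from measured values. For each gene the mean CPM (counts scaled to a library total of 1e6) of the 3 stressed libraries was set against that of the 3 controls as r, the log2 ratio after adding 1 CPM to both, minus the median of that ratio over genes. Members had r of -1 or less in each of the 3 stresses and at least 10 CPM in the controls. These were 144 of the 5320 K. lactis genes measured and 3.16% of the 4561 with at least 10 CPM in controls, in a series that held 10527 genes of both species studied. Values of heat, MMS and caffeine against the controls are therefore given as a description, with no test. Ethanol was not used to choose the members.

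K. lactis is a budding yeast that grows on lactose and respires readily. In the related baker's yeast, many different stresses lower a shared set of transcripts tied to growth, ribosome production foremost among them, while a second set is raised, a pattern known as the environmental stress response. Heat unfolds proteins, MMS methylates DNA, ethanol disturbs membranes, and caffeine is known in yeast as an inhibitor of the growth-promoting TOR kinase. The deposited tables list K. lactis genes by identifiers without names for the members, so no member is assigned a name or a role here.

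Poly(A)-captured RNA was sequenced from K. lactis strain yLB72 and from K. marxianus Km31, which is not used further here. All K. lactis groups shared the yLB72 genotype and came from overnight growth in YPD, a rich medium. Cultures of 50 mL were then seeded at an optical density of 0.05 and harvested once they had reached 0.4 to 0.85. The 5 groups were controls at 28C, heat at 39C, MMS, caffeine and ethanol, and each held 3 biological replicates. No dose or duration is in the labels, nor a temperature for the MMS, caffeine and ethanol cultures. The labels give neither the start of each stress relative to seeding nor a growth rate.

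Summed gene counts per library were 16.9 to 50.9 (in units of 1e6) outside ethanol, and 39.0, 94.4 and 45.5 in the 3 ethanol libraries. The ethanol files were counted with another program and on another feature type than the other files, so in every ethanol value the culture and the counting method cannot be told apart. Reads on no feature averaged 5.49% of those listed in controls, 6.61% in heat and 7.61% in caffeine, and were below the control level in MMS. The raw CPM of genes with at least 10 CPM in controls moved by a median log2 of 0.23 in heat, 0.78 in MMS, 0.45 in caffeine and 0.47 in ethanol, and every r is relative to that shift. Of the 144 members, 86 fell by less than 2-fold in raw CPM in at least 1 of the 3 stresses. Without the centring, an alternative chosen after seeing the data, 58 genes met the rule, all of them members. CPM values of single genes below use totals scaled by TMM (trimmed mean of M values).

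The members together took up a much smaller share of the gene counts in the 3 stresses than in controls, a fall that the rule largely builds in. Of all gene counts they were 34.3%, 32.8% and 30.5% in the 3 control libraries, which is 32.5% ± 1.90 (SD, n = 3). The share was 11.7% ± 0.770 in heat, 7.96% ± 0.158 in MMS and 9.86% ± 0.322 in caffeine. In ethanol it was 24.0%, 18.8% and 20.3%, so each ethanol library lay below each control and above each library of the other stresses. Since the rule used those stresses and not ethanol, this order is partly built in as well. The 10 members of highest control counts made up 22.0% ± 1.48 of control counts, and the other 134 made up 10.5% ± 0.433. In ethanol these parts were 13.8% ± 2.84 and 7.19% ± 0.169. The top 10 varied most between the ethanol libraries, at 17.0% in replicate 1 against 11.6% and 12.9% in the other two.

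**Figure D1:**
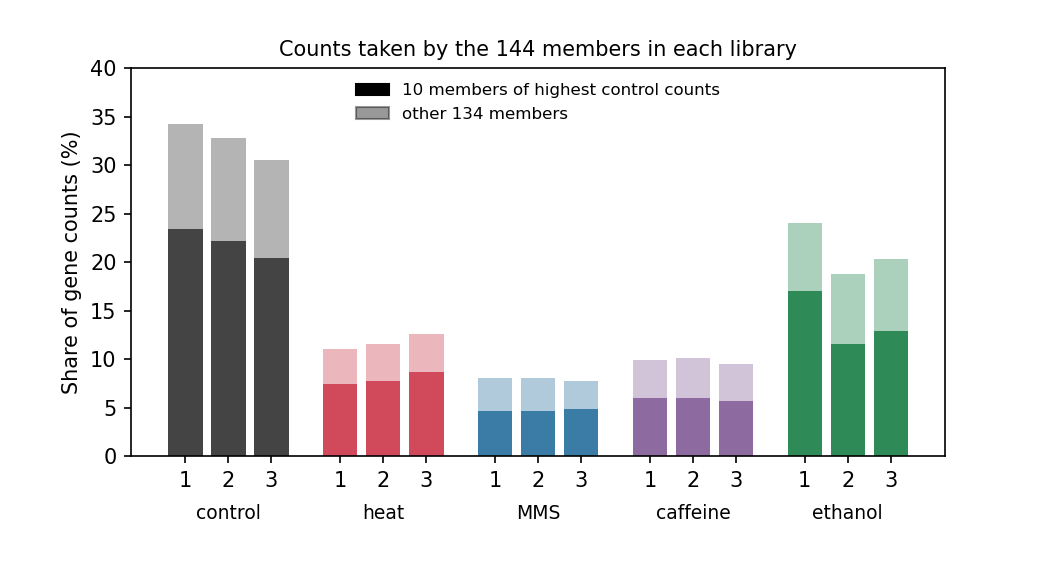
Share of all K. lactis gene counts (percent) taken by the 144 members in each of the 15 libraries, by group, with the 10 members of highest control counts in solid and the other 134 in pale color. The controls sit between 30.5% and 34.3%, ethanol between 18.8% and 24.0%, and the 3 stresses that chose the members lower still.

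Coordinates below are those of the ethanol files, which name no build. The member with the most control counts was KLLA0E16303g (chromosome 5, 1457903 to 1459594, minus strand), at 3.75% of all control counts. It held 53469.5, 53231 and 44434 CPM in the controls and 6752, 7419 and 8326 CPM in heat. In MMS it held 1495, 1357 and 3084 CPM, highest in replicate 3, and in caffeine 6336, 6994 and 5783 CPM. The 3 ethanol libraries held 32025, 13982 and 17799 CPM, all below the controls and far apart from each other. The next, KLLA0A09185g (chromosome 1, 804448 to 805761, plus strand), at 3.12% of control counts, fell from 45080.2, 41458 and 39006 CPM to 12423, 13577 and 15135 in heat. It held 5895, 5665 and 6601 CPM in MMS and 7580.4, 7752 and 7497 CPM in caffeine. Its ethanol libraries held 25786, 14198 and 17536 CPM, again highest in replicate 1 and with no overlap with the controls.

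The fall of the members varied widely. The median r was -1.62 in heat, with a range of -6.40 to -1.003. In MMS it was -1.86, from -6.80 to -1.01, and in caffeine -1.74, from -6.65 to -1.01. An r of -2 or less in all 3 stresses, a 4-fold fall relative to the shift, was found in 21 members, an 8-fold fall in 7 and a 16-fold fall in 1. The members at the edge of the rule were KLLA0F08855g, with an r of -1.003 in heat, -3.54 in MMS and -2.37 in caffeine, and KLLA0E08559g, with -1.006 in heat. Just outside it lay KLLA0A08492g, at -0.99 in caffeine, and KLLA0D14685g, at -0.99 in heat. By the rule's own measure 254 further genes were lowered in exactly 2 of the stresses and 603 in exactly 1.

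The member with the deepest mean fall was KLLA0C19338g (chromosome 3, 1729569 to 1730978, plus strand). Its controls held 2819.9, 2162 and 1463 CPM, and its heat libraries 23.7, 21.3 and 23.3 CPM. The MMS libraries held 14.8, 17.6 and 21.3 CPM and the caffeine libraries 20.8, 18.9 and 19.995 CPM, so its 9 libraries of these stresses all lay between 14.8 and 23.7 CPM. It was called in none of the direct comparisons between these stresses (edgeR adjusted p = 0.262 for MMS against heat, 0.526 for caffeine against heat and 0.634 for MMS against caffeine). Fitted on the 6 libraries compared alone, caffeine was called lower than heat by a log2 of -0.20 (edgeR adjusted p = 0.0241). In ethanol it held 1160.4, 506 and 774 CPM, below all controls and well above the other stresses. The next, KLLA0E14015g (chromosome 5, 1242786 to 1243832, plus strand), held 1440.1, 1088 and 721 CPM in controls and 21.2, 22.0 and 21.8 CPM in heat. It held 51.1, 54.2 and 32.6 CPM in MMS, 96.8, 89.9 and 97.3 CPM in caffeine and 543, 184 and 229.5 CPM in ethanol, so its residual level differed between the stresses.

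**Figure D2:**
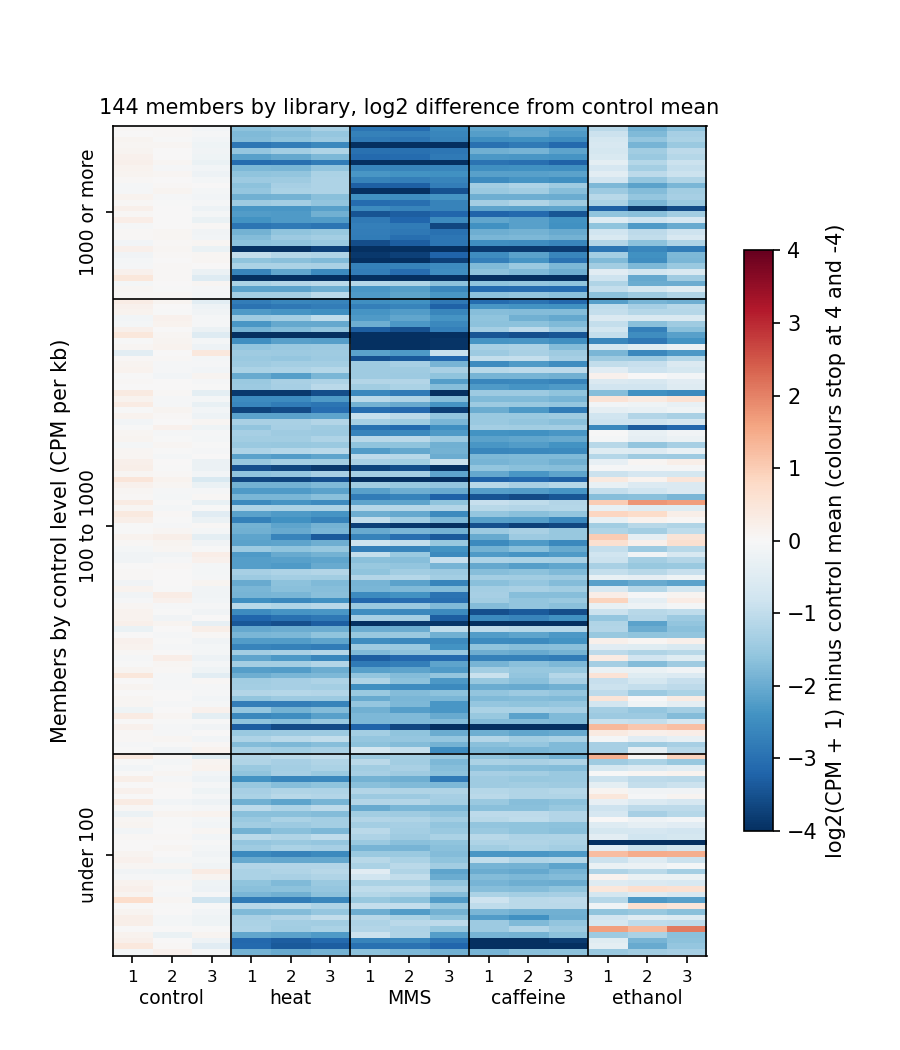
Log2 difference of each library from the mean of the 3 controls for the 144 members (lines, ordered by control level in CPM per kilobase, highest on top) across the 15 K. lactis libraries (columns). Heat, MMS and caffeine are lower throughout because they chose the members, while the ethanol columns hold values from well below to above the controls.

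**Figure D3:**
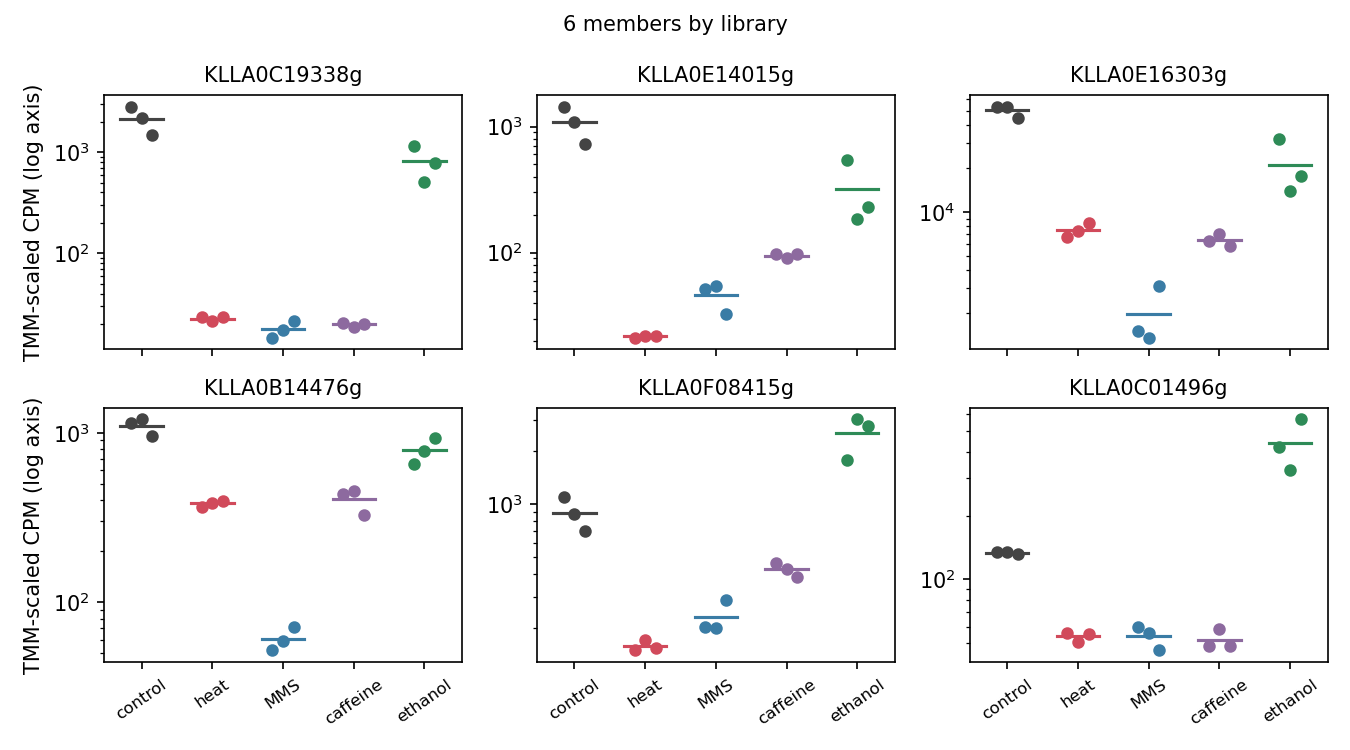
TMM-scaled CPM (log axis) of 6 members in each library by group, 3 points per group. KLLA0C19338g drops to 14.8 to 23.7 CPM in the 3 stresses that chose the members, and its ethanol libraries lie between those and the controls.

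Ethanol was the condition that the rule did not use. In it 109 of the 144 members were lower than in controls by edgeR's quasi-likelihood test, at an adjusted p under 0.05 over all 5124 genes tested, where 32.3% of tested genes were called lower. A further 11 were higher, where 33.1% of tested genes were, and 24 were not called. Without control replicate 3 the members called higher numbered 6. At least 2-fold differences were reached by 64 of the lower members, where 10.9% of tested genes were called lower at this fold, and by 4 of the higher, where 7.83% were. The median log2 change of the members was -0.87, against 0.00 over all genes tested and -0.02 over genes of at least 10 CPM in controls. All 3 ethanol libraries lay below all 3 controls in 108 members (33.2% of tested genes) and above them in 8 (33.2%). The ethanol comparison uses the same 3 control libraries that chose the members, so a chance high value in those controls lowers both, and part of this fall is built in. In r, 63 members were at -1 or less in ethanol, where 10.4% of genes of at least 10 CPM in controls were. Above 0, which is the median of those genes by the definition of r, were 22 members.

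**Figure D4:**
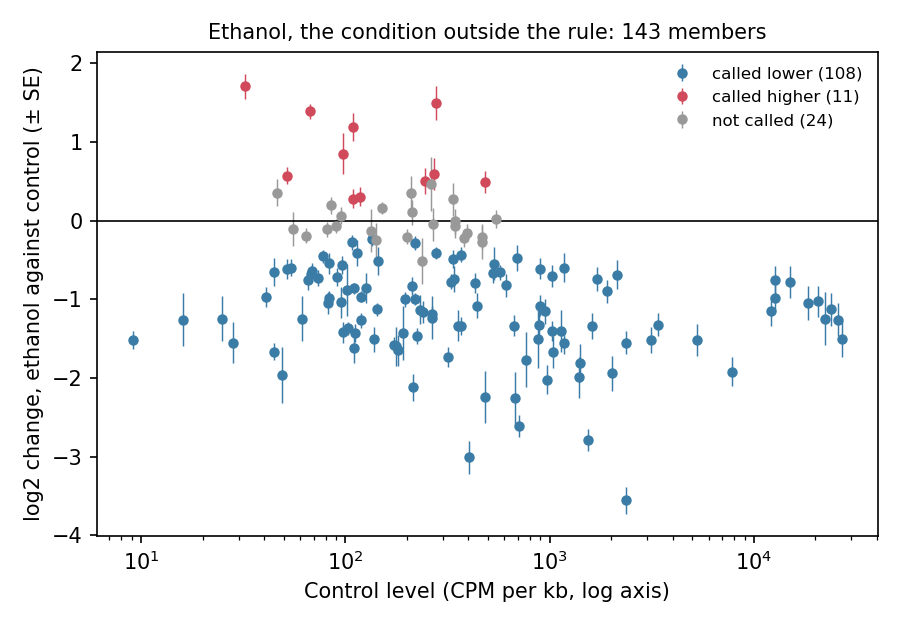
Log2 change in ethanol against control (± SE) of 143 members against their control level in CPM per kilobase (log axis), colored by call, with the overlapping member left out. The 108 members called lower reach -3.56, the 11 called higher reach 1.71, and all members above 1000 CPM per kilobase lie below 0.

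KLLA0E16303g and KLLA0A09185g, the members with the most control counts, were also lower in ethanol, as were KLLA0C19338g and KLLA0E14015g, of deepest mean r. Not every deep member was: of the 7 with r of -3 or less in all 3 stresses, 5 were called lower in ethanol and 1 higher. KLLA0E16303g changed by a log2 of -1.24 ± 0.33 (SE, edgeR adjusted p = 0.00478) and KLLA0A09185g by -1.13 ± 0.21 (edgeR adjusted p = 0.00036). KLLA0C19338g changed by -1.40 ± 0.27 (edgeR adjusted p = 0.000462) and KLLA0E14015g by -1.77 ± 0.35 (edgeR adjusted p = 0.000523). Without ethanol replicate 1 the log2 change of KLLA0E14015g was -2.39. The largest fall with counts in every library was that of KLLA0F21120g (chromosome 6, 1970487 to 1971245, minus strand), which held 2753, 2411 and 2054 CPM in controls and 250.1, 165 and 199 CPM in ethanol. It was 11.8-fold lower (log2 -3.56 ± 0.17, edgeR adjusted p = 9.12e-10), while heat left 477, 473 and 531 CPM, MMS 414, 384 and 373 CPM and caffeine 555, 539 and 555 CPM. The ethanol libraries thus held the lowest values of the 4 stresses for this gene, with no overlap with any other library. They were also the ones counted by another program, so culture and counting cannot be told apart in this order.

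KLLA0C19228g (chromosome 3, 1713787 to 1715562, plus strand) had 163, 164 and 163 CPM in the controls and 0 counts in each ethanol library, which allows up to 0.0318 to 0.0769 CPM of the raw totals for counting error only. It is the 1 member that overlaps another annotated gene, and the ethanol files were counted by another program, so no fold is given for it. Without it the members' median log2 in ethanol was -0.86, and 108 of 143 were called lower.

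The 11 members that were higher in ethanol spanned log2 changes of 0.28 to 1.71. KLLA0C01496g (chromosome 3, 113070 to 116152, minus strand) held 134, 135 and 132 CPM in controls and 419.8, 327 and 567 CPM in ethanol, a 3.28-fold rise (log2 1.71 ± 0.16, edgeR adjusted p = 8.83e-07). The same gene held 56.0, 50.5 and 55.2 CPM in heat, 59.4, 55.9 and 46.3 CPM in MMS and 48.4, 58.5 and 48.8 CPM in caffeine. KLLA0F08415g (chromosome 6, 783454 to 785851, plus strand) held 1091, 873 and 708 CPM in controls and 1776, 3002 and 2768 CPM in ethanol, 2.82-fold higher (log2 1.498 ± 0.22, edgeR adjusted p = 4.1e-05). For both genes every ethanol library lay above every control and every library of the other stresses. KLLA0D06083g (chromosome 4, 521215 to 521565, minus strand), chosen after its values were seen, was the 1 of the 7 members with at least 8-fold falls that was higher in ethanol. It held 58.4, 50.0 and 46.3 CPM in controls, 4.29, 3.34 and 3.36 CPM in heat, 4.66, 3.15 and 1.92 CPM in MMS and 1.38, 1.72 and 1.31 CPM in caffeine. Its ethanol libraries held 127, 109 and 118 CPM, 2.29-fold above the controls (log2 1.20 ± 0.18, edgeR adjusted p = 4.75e-05).

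The members were split by their control level in raw CPM per kilobase, a scale that corrects for gene length, into high (at least 1000), middle (100 to 1000) and low (under 100). The bounds were chosen after the values were seen. The members' control level had a median of 254 CPM per kilobase and a range of 9.09 to 26985, against a median of 45.3 for genes of at least 10 CPM. Of the 161 genes of high level 30 were members (18.6%), of the 1015 of middle level 79 (7.78%), and of the 3385 of low level 35 (1.03%). The 30 high members made up 28.2% of control counts, the 79 middle members 3.99% and the 35 low members 0.359%.

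In ethanol all 30 high members were called lower, where 51.6% of all high genes were, with a median log2 of -1.33 against -0.90. Of the 79 middle members 55 were lower and 7 higher, where 52.7% and 14.6% of middle genes were, with a median of -0.79 against -0.36. Of the 35 low members 24 were lower and 4 higher, where 26.8% and 38.8% of low genes were, with a median of -0.65 against 0.11. All genes of high level, the members included, thus had a median below 0 in ethanol, with 51.6% called lower and 0.621% higher. The members' medians lay below those of their own level in each of the 3 classes. The controls that chose the members build in part of this difference.

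Direct comparisons between the stresses that chose the members use no control library. The rule requires a fall in each stress and does not fix in which stress a member is lower, but the libraries are the ones it used. In MMS against heat 52 members were lower, where 34.4% of tested genes were, and 25 were higher, where 37.5% were (edgeR, adjusted p under 0.05). At least 2-fold differences were found in 30 of the lower members, where 11.7% of tested genes were lower at this fold, and in 8 of the higher, where 9.43% were. The median log2 difference was -0.17 against 0.04 over all genes tested. In caffeine against heat 51 were lower (35.4% of tested genes) and 37 higher (37.7%), with medians of -0.09 and 0.02. In MMS against caffeine 60 were lower (32.2%) and 36 higher (33.2%), with medians of -0.17 and 0.02. The members called lower were 36.1%, 35.4% and 41.7% of the 144 in these comparisons, so the first pair lie near the share of all genes.

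**Figure D5:**
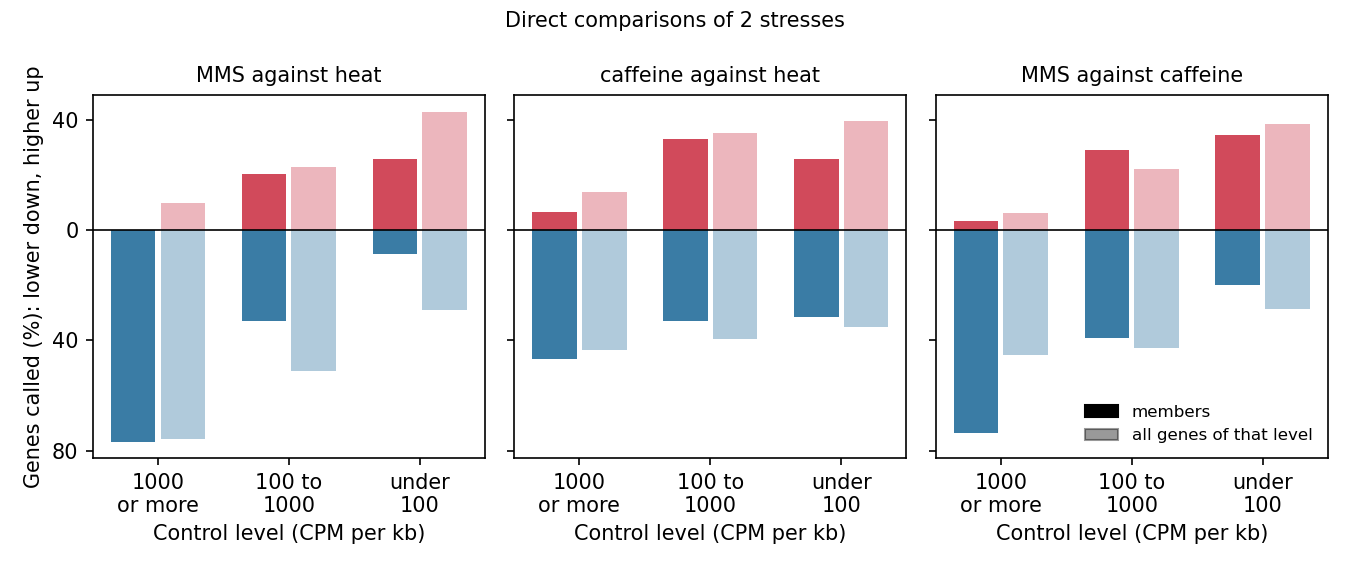
Share of genes called (percent, lower drawn downward and higher upward) in the 3 direct comparisons of 2 stresses, by control level in CPM per kilobase, for the members (solid) and for all genes of that level (pale). In the high class 23 of 30 members are lower in MMS than in heat, beside 75.8% of all high genes.

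The lowest r was that of MMS in 73 members, of caffeine in 40 and of heat in 31, and in the high class it was that of MMS in 28 of 30. These counts were not made over all genes. Against control, the median log2 change of all high genes was also lowest in MMS, at -1.23, with -0.47 in caffeine and -0.08 in heat. Of the 30, 23 were lower in MMS than in heat, where 75.8% of all high genes were, with a median log2 difference of -1.17 against -1.36. In MMS against caffeine 22 were lower and 1 higher, where 45.3% and 6.21% of high genes were, with medians of -0.67 and -0.72. Members were chosen for low values in heat, MMS and caffeine alike, so their differences between these stresses are set beside those of their level as a description. In caffeine against heat 14 high members were lower and 2 higher, where 43.5% and 13.7% of the level were. Of the 35 low members, 3 were lower and 9 higher in MMS than in heat, where 28.9% and 42.9% of low genes were, and 7 were lower and 12 higher in MMS than in caffeine, where 28.5% and 38.4% were. Of the 79 middle members 26 were lower and 16 higher in MMS than in heat, where 51.2% and 22.8% of middle genes were. In caffeine against heat 26 were lower and 26 higher, where 39.6% and 35.1% were, and in MMS against caffeine 31 and 23, where 42.6% and 22.0% were.

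By the 3 direct tests together, 34 members were lower in MMS than in both other stresses, which is 23.6% of members and holds for 13.4% of tested genes. Of these, 18 were of high level, 14 of middle and 2 of low level, and 31 were called lower in ethanol. Another 23 were lower in caffeine than in both others (16.0%, against 19.98% of tested genes), with 17 lower and 2 higher in ethanol. Lower in heat than in both others were 15 members (10.4%, against 23.8%), none of high level, with 11 lower and 3 higher in ethanol. In 17 members (11.8%, against 7.40%) no direct comparison was called, KLLA0C19338g among them, and the remaining 55 had mixed calls. The shares of tested genes given here were not matched for control level. High level held 30 of the 144 members, against 161 of the 4561 genes of at least 10 CPM in controls. Of all high genes, 75.8% were lower in MMS than in heat and 45.3% lower in MMS than in caffeine.

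KLLA0B14476g (chromosome 2, 1271319 to 1272506, plus strand) had the largest difference of MMS from both other stresses. It held 1146, 1198 and 954 CPM in controls, 366, 387 and 398 CPM in heat and 435, 455 and 327 CPM in caffeine. In MMS it held 51.9, 58.7 and 71.8 CPM, 6.31-fold below heat (log2 -2.66 ± 0.18, edgeR adjusted p = 1.17e-07) and 6.67-fold below caffeine (log2 -2.74 ± 0.18, edgeR adjusted p = 3.03e-08). Its ethanol libraries held 656, 784 and 932 CPM, all below the controls (log2 -0.47 ± 0.17, edgeR adjusted p = 0.0231). That call was lost without ethanol replicate 1 (edgeR adjusted p = 0.08), control replicate 1 (0.0603) or control replicate 2 (0.0814). KLLA0F15224g followed in MMS against heat, with 102, 128 and 208 CPM in MMS and 911, 887 and 828 CPM in heat (log2 -2.58 ± 0.27, edgeR adjusted p = 2.46e-06). KLLA0D13310g followed in MMS against caffeine, with 720.0, 679.6 and 1084 CPM in MMS and 4319.6, 4582 and 3674 CPM in caffeine (log2 -2.34 ± 0.20, edgeR adjusted p = 3.82e-07). In all of these pairs the MMS libraries lay below every library they were set against. KLLA0E16303g was also 3.79-fold lower in MMS than in heat (log2 -1.92 ± 0.34, edgeR adjusted p = 0.000202) and 3.22-fold lower than in caffeine (log2 -1.69 ± 0.34, edgeR adjusted p = 0.000566).

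Among members higher in MMS than in the other stresses, 8 differed by at least 2-fold from heat, where 9.43% of tested genes did, and 6 from caffeine, where 6.85% did. KLLA0B14883g held 1062, 803 and 600.0 CPM in MMS and 319, 388 and 327 CPM in heat, 2.39-fold higher (log2 1.25 ± 0.21, edgeR adjusted p = 0.000146) and without overlap. KLLA0F26686g, a gene of 240 bp, held 23.8, 23.2 and 5.36 CPM in MMS and 5.96, 6.87 and 7.70 CPM in heat (log2 1.34 ± 0.37, edgeR adjusted p = 0.00549). Its MMS replicate 3 lay below all 3 heat libraries, and without MMS replicate 3 the log2 difference was 1.74. Against caffeine, KLLA0E09571g held 3.65, 3.75 and 3.01 CPM in MMS and 1.13, 0.926 and 1.06 CPM in caffeine (log2 1.74 ± 0.46, edgeR adjusted p = 0.00446). KLLA0B13926g held 9.27, 9.67 and 7.40 CPM in MMS and 2.76, 2.21 and 3.50 CPM in caffeine (log2 1.596 ± 0.34, edgeR adjusted p = 0.000912).

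In caffeine against heat 14 members were lower by at least 2-fold, where 13.2% of tested genes were, and 11 higher, where 14.7% were. KLLA0F19382g, a gene of 228 bp, held 8.95, 8.91 and 11.3 CPM in heat and 52.0, 52.3 and 46.7 CPM in caffeine, 5.12-fold higher (log2 2.36 ± 0.35, edgeR adjusted p = 2.99e-05). KLLA0E14015g, described above, was 4.37-fold higher in caffeine than in heat (log2 2.13 ± 0.36, edgeR adjusted p = 9.52e-05). On the other side, KLLA0B13233g held 209, 209.6 and 231 CPM in heat and 66.5, 61.1 and 68.5 CPM in caffeine, 3.31-fold lower (log2 -1.73 ± 0.13, edgeR adjusted p = 4.38e-08). KLLA0D12474g held 90.9, 76.6 and 90.2 CPM in heat and 28.6, 24.1 and 26.2 CPM in caffeine (log2 -1.71 ± 0.28, edgeR adjusted p = 7.76e-05). The caffeine and heat libraries did not overlap in any of these 4 genes.

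The members' replicates were spread more widely in MMS and ethanol than in the other groups. The median SD of log2 CPM over members was 0.121 in controls, 0.0983 in heat, 0.192 in MMS, 0.0729 in caffeine and 0.185 in ethanol. Genes of at least 10 CPM had 0.101, 0.0710, 0.157, 0.0641 and 0.161. A spread of at least 2-fold between the highest and lowest library was found in 13 members in MMS (9.03%, against 6.56% of genes) and in 13 in ethanol (9.03%, against 5.02%). It was found in 2 members in controls (1.39%, against 0.592% of genes), where replicate 1 was the highest library in 85 members and replicate 3 the lowest in 105. Counts of the highest or lowest library were not made over all genes. In heat the 2-fold spread was found in 1 member (0.694%, against 0.0658% of genes) and in caffeine in 0 (against 0.0219%). Of the 13 in MMS, 10 were lowest and 3 highest in replicate 3. That library differed from the others by a median log2 of -0.17 over the members, against -0.04 over genes of at least 10 CPM. Without MMS replicate 3 the rule gave 139 genes, 137 of them among the 144, and the direct calls were 57 lower and 31 higher against heat and 60 and 42 against caffeine. In ethanol, replicate 1 was the highest library in 88 members, and in 25 of the 30 of high level. It differed from the others by a median log2 of 0.19 over the members, against -0.03 over genes of at least 10 CPM.

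The members lay on all 6 chromosomes. Chromosome 3 held 31 (21.5%, against 16.7% of genes of at least 10 CPM), and chromosome 4 held 13 (9.03%, against 16.1%). Chromosomes 1, 2, 5 and 6 held 17, 21, 32 and 30. They were on the plus strand in 73 cases (50.7%, against 49.6%). Genes of several coding parts were rare among them, with 1 member (KLLA0C19327g, 0.694%) against 3.75% of genes. The median length was 1269 bp, against 1338 bp, with a range of 228 to 5871 bp. Distance to a chromosome end was taken from the first base on one side and from the end of the last annotated gene on the other. Within 20 kb lay 6 members (4.17%), against 1.10% of genes, and within 100 kb 22 (15.3%), against 9.56%. Of the 6, 3 were a single run of neighbours on chromosome 2, and KLLA0C19360g belonged to a run on chromosome 3, both described below. These shares are descriptions with no test.

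Some members were neighbours. Neighbours were counted on each side of each member, so a pair of neighbouring members enters from both its genes. Of the 287 neighbours so counted, 30 were members (10.5%), where members are 2.71% of all genes. The neighbouring members formed 13 runs of 28 members, 2 of them of 3 genes and 11 of 2. Of the 15 neighbouring pairs 7 were on the same strand, 7 were divergent and 1 was convergent, against 44.2%, 27.9% and 27.9% of all neighbouring pairs. The gaps ran from 166 to 2515 bp with a median of 665 bp.

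A run of 3 ended 5.81 kb from the end of the annotated chromosome 2 and reached from KLLA0B14839g (chromosome 2, 1304089 to 1305354, minus strand) to KLLA0B14883g (chromosome 2, 1308391 to 1314261, plus strand), with gaps of 572 and 700 bp. KLLA0B14839g held 4329, 3619.9 and 2996 CPM in controls and 2546, 2015 and 2241 CPM in ethanol (log2 -0.69 ± 0.18, edgeR adjusted p = 0.00482). It held 692, 743 and 759 CPM in heat, 509.7, 395 and 628 CPM in MMS and 848, 797 and 689 CPM in caffeine. The middle gene was lower in ethanol as well (log2 -0.598 ± 0.19, edgeR adjusted p = 0.0118). KLLA0B14883g held 2496, 2087 and 1782 CPM in controls and 1712, 2307 and 2162 CPM in ethanol, overlapping, and was not called (log2 -0.04 ± 0.21, edgeR adjusted p = 0.866). The 3 neighbours thus shared their falls in heat, MMS and caffeine, which chose them, and differed in their ethanol calls, a difference that was not tested.

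The other run of 3, on chromosome 3, reached from KLLA0C19327g (chromosome 3, 1727158 to 1727597, minus strand) to KLLA0C19360g (chromosome 3, 1731276 to 1732223, minus strand), with KLLA0C19338g in the middle and gaps of 1971 and 297 bp. KLLA0C19327g held 97.4, 92.3 and 67.9 CPM in controls and 27.6 ± 9.14 CPM (SD, n = 3) in ethanol (log2 -1.65 ± 0.20, edgeR adjusted p = 8.92e-06). Its means were 7.13 CPM in heat, 4.65 CPM in MMS and 3.63 CPM in caffeine. KLLA0C19360g held 1327, 1353 and 1218 CPM in controls and 418, 489 and 568 CPM in ethanol (log2 -1.40 ± 0.13, edgeR adjusted p = 9.34e-07). All 3 genes of this run were called lower in ethanol.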

How the data were processed

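Poly(A)-captured RNA of 15 K. lactis libraries in 5 groups of 3 biological replicates was used, with groups and replicate numbers from the sample titles. The authors deposited raw counts for each feature, without normalization. Per the submitters' processing notes TopHat and HTSeq were used, with no version, and the ethanol files were counted on exons with featureCounts 1.6.3, as stated per the file headers. That header sets no strand option. Build, and strand use in the other files, are not given in the sources used here, so coordinates are those of the ethanol files and overlapping or antisense genes are uncertain. Coding parts were summed to 5320 genes. Reads on no feature stayed out of totals and tests.

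The quasi-likelihood test of edgeR 4.0.16 in R 4.3.3 was fitted to the 15 libraries together, with group as its term, after filterByExpr (5124 genes left) and TMM scaling (factors of 0.735 to 1.39). Tests were 2-sided with Benjamini-Hochberg adjustment over all genes tested, called under 0.05. The biological coefficient of variation was 0.145. Errors of log2 values are standard errors. The step was run on simulated counts with 200 changed genes per comparison. Far more genes were called in the data, such as 3354 in ethanol against control. The simulation therefore does not check the step under changes as wide as these. Shares and levels per kilobase use raw totals, and single-gene CPM uses TMM-scaled totals.

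The members and lists were chosen with earlier results of these data known. The 15 gene lists (676 genes) could not be applied: 4 of their genes were named by an identifier and 0 were members, and 0 K. lactis identifiers were found in the reference gene table. The rule for named genes took the members of highest control CPM, those of lowest mean r, those of lowest and highest change among the called in each tested comparison, the genes next to the threshold and the longest runs of neighbours. Since the identifiers carry no names, at most 2 per direction were printed from each. Same-numbered libraries of caffeine and heat deviated weakly together (correlations of 0.106, 0.310 and 0.209 across genes), and the own number matched best in 2 of 3. The labels state no pairing, and the main fit had no block. In the other comparisons at least 1 correlation was under 0.1. Alternatives were RLE scaling, DESeq2 1.42.0, no count filter, the replicate block, fits of the 6 libraries compared, each replicate left out, and for the rule a pseudocount of 0.1, a minimum of 20 CPM, r of -1.2 or less, TMM-scaled CPM without centring and the overlapping member left out.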

Additional observations from a re-analysis of the deposited data

How the results depend on the processing

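By the rule 138 to 151 genes were members when 1 library was left out, 146 with a pseudocount of 0.1, 134 at a minimum of 20 CPM, 101 at r of -1.2 or less, 161 on TMM-scaled CPM without centring and 58 on raw CPM without centring, an alternative chosen after seeing the data. With 1 library left out, edgeR called 102 to 110 members lower and 6 to 12 higher in ethanol, 48 to 57 lower and 21 to 31 higher in MMS against heat, 38 to 47 and 31 to 33 in caffeine against heat, and 52 to 60 and 29 to 42 in MMS against caffeine. The 6 came without control replicate 3, the cause of which was not tested. Genes called in these comparisons were 3005 to 3534, 3391 to 3832, 3459 to 3534 and 3010 to 3463. With the replicate block the counts were 108 and 11 in ethanol, 53 and 25 in MMS against heat, 48 and 36 in caffeine against heat, and 58 and 35 in MMS against caffeine, and the block moved no count by over 1.5 times. RLE scaling, DESeq2, no count filter and fits of the 6 libraries compared kept every count within 1.5 times. Of 366 values of single genes under alternatives, over the 32 single-gene results recomputed, 359 kept their direction and call. The exceptions were KLLA0B14476g in ethanol, which lost its call in 4 (log2 -0.47 on the 6 libraries compared, and -0.44 to -0.36 without control replicate 1, control replicate 2 or ethanol replicate 1), KLLA0C19338g, called in caffeine against heat on the 6 libraries compared (log2 -0.20), and KLLA0B14883g in ethanol, never called, whose log2 ran from -0.163 to 0.091 with 1 library left out and was above 0 without ethanol replicate 1 (0.0746) or control replicate 1 (0.091). Depth limits members of few CPM, and the counting programs limit every ethanol value.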
